A study of Mus musculus with 9 samples.

Results

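The genes described here encode splicing factors and proteins of the small nuclear ribonucleoproteins (snRNPs), in mouse bone marrow neutrophils and in 2 populations of immature myeloid cells. They were chosen by symbol in the annotation of the array: Snrp genes, Lsm genes, Sf3a and Sf3b genes, Srsf genes and Hnrnp genes. The rule found 59 genes among the 18193 genes with a probe set that names only that gene, and each gene is represented by the brightest such probe set. There were 9 Snrp, 12 Lsm, 9 Sf3, 10 Srsf and 19 Hnrnp genes. The choice used names and brightness over all arrays, and no test of differences between populations. Most of the arrays are of myeloblasts, so the brightest probe set of a gene can more often be one that is high in myeloblasts. The probe sets of all genes were chosen in the same way, and results with the mean of probe sets are given at the end. Another 17 probe sets name a gene of these families together with other genes and were left out. Snrpd1, Snrpd2, Snrpa, Lsm5 and Hnrnpa3 have only such probe sets and are not described.

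Each population was measured on 3 Affymetrix mouse expression arrays, 9 in all. Neutrophils were sorted as c-kit- Gr1+ Mac1+ cells. Mac1+ myeloblasts expressed c-kit, Gr1 and Mac1. Mac1- myeloblasts expressed c-kit and Gr1, with Mac1 low or absent. All came from C57BL/6 mice of either sex, 4 to 10 weeks old, with no other genetic change or treatment named. Both myeloblast populations were sorted for absence of B220, TER119, CD3, CD4, CD8 and IL7Rα, and their cytology was that of myeloblasts or undifferentiated blood cells, so each may mix stages. Nothing in the labels says that the arrays of a population came from separate animals, so the p-values reflect no more than the variation among these arrays, part or all of which may be technical.

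Splicing removes introns from pre-mRNA and is carried out by the spliceosome, which assembles on each intron from snRNPs. Sm proteins form a ring around most of the small nuclear RNAs, and LSm proteins form a related ring around U6. The SF3a and SF3b complexes belong to the U2 snRNP, which recognises the branch point. SR proteins (Srsf) mostly bind exonic enhancers and promote inclusion of exons, whereas many hnRNP proteins oppose inclusion, and both groups set the pattern of alternative splicing. Neutrophils are short-lived cells with condensed, segmented nuclei that leave the cell cycle during maturation in the marrow.

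Values are given as log2(intensity + 16), so that a difference of 1 is a change of 2-fold on that scale, and changes of dim genes are understated. In bulk samples fewer cells of a type and less RNA per cell cannot be told apart, and every level below is relative to the rest of the RNA on the same array. The mean intensity per array lay between 549 and 727 and the median between 39.1 and 61.8. The genes of the sort markers c-kit and Mac1 followed the sort: Kit averaged 7.84 ± 0.91 in neutrophils, against 11.71 ± 0.06 in Mac1+ myeloblasts and 11.63 ± 0.06 in Mac1- myeloblasts (SD, n = 3 each), and Itgam, which encodes the alpha chain of Mac1, averaged 11.55, 9.69 and 6.45 in the same order. They belong to a list of 16 myeloblast and neutrophil genes. Of these, 5 were higher, 6 lower and 5 not called in neutrophils against Mac1+ myeloblasts, where 20.0% of all genes were higher and 28.5% lower. Against Mac1- myeloblasts 10 were higher and 6 lower, where 22.8% of all genes were higher and 30.2% lower. Of the neutrophil arrays, array 1 stood apart. On the second principal component of all genes it lay at 66.5, and neutrophil arrays 2 and 3 lay at -23.9 and -39.3. The ratio of the Gapdh control probe sets from opposite ends of the transcript was 2.70 on it, against 2.06 and 2.16 on the other neutrophil arrays and 1.92 to 2.47 on the myeloblast arrays. The same ratio for actin did not set it apart, at 1.55 on array 1 and 1.52 and 1.84 on neutrophil arrays 2 and 3. The granule gene Mpo, which marks immature cells, read 12.80 on it and 10.76 and 9.63 on the others. Counts are therefore also given without this array. The median level of the 59 genes was 10.90, 10.75 and 10.60 on the neutrophil arrays, 12.25, 12.24 and 12.22 on the Mac1+ arrays and 12.33, 12.35 and 12.31 on the Mac1- arrays. Among markers of other marrow cells, the 11 measured of 12 monocyte and macrophage genes summed to intensities of 16626 to 23854 in neutrophils, 6106 to 7418 in Mac1+ myeloblasts and 60302 to 64926 in Mac1- myeloblasts. Of these 11, 5 were higher and 1 lower in neutrophils than in Mac1+ myeloblasts, 2 higher and 8 lower in neutrophils than in Mac1- myeloblasts, and 10 lower in Mac1+ than in Mac1- myeloblasts. The 6 measured of 10 erythroid genes summed to 668 to 733, 7680 to 7993 and 4737 to 5484 in the same order, nearly all of it from the transferrin receptor gene Tfrc. The 7 measured of 8 B cell genes, mostly Ebf1, summed to 1083 to 2847, 3489 to 13174 and 9122 to 13434. The sums were 134 to 229, 1222 to 1579 and 1464 to 1611 for 8 eosinophil, basophil and mast cell genes, 511 to 709, 161 to 233 and 128 to 375 for 6 of 8 T and NK cell genes, and 599 to 718, 334 to 411 and 289 to 364 for 5 of 6 megakaryocyte genes. No marker was at 0 on any array. The part of these differences in the results below was not tested.

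Most genes of splicing factors and snRNP proteins were lower in neutrophils than in either myeloblast population, while none passed the test between the myeloblast populations. In neutrophils against Mac1+ myeloblasts, 45 of the 59 genes fell, 1 rose and 13 were not called (limma, adjusted p under 0.05, Benjamini-Hochberg over all 18193 genes). Among all genes 48.5% were called, 28.5% lower and 20.0% higher. A fall of at least 2-fold was called for 35 members, against 22.4% of all genes, and one of at least 4-fold for 17 members, against 12.6% of all genes. The median difference of the members was -1.40, and that of all genes was 0.05. Dim genes weigh on that second value, since only 2 of the 59 members are among the dimmest 40% of genes. With these dim genes left out, the median of the remaining 10916 genes was -0.42. Dimness was judged by the mean level over all arrays, most of them of myeloblasts, so genes bright only in myeloblasts are kept more easily. The share of this in the value of -0.42 was not tested. In neutrophils against Mac1- myeloblasts, 47 members fell, 1 rose and 11 were not called, where 53.0% of all genes were called, 30.2% lower and 22.8% higher. Here 36 members fell by at least 2-fold, against 24.6% of all genes, and 19 by at least 4-fold, against 14.8% of all genes. The median difference of the members was -1.44, against 0.05 for all genes and -0.42 with the dimmest 40% of genes left out. With the arrays centred on their medians, which moves the median difference of all genes to 0.53, 37 members were lower and 7 higher against Mac1- myeloblasts. All neutrophil arrays lay below all Mac1+ arrays for 47 members and above them for 1, against 31.0% and 24.0% of all genes. For the Mac1- arrays these counts were 45 and 2, against 32.7% and 26.8% of all genes. Both comparisons use the same neutrophil arrays and are not independent. Without neutrophil array 1, the counts were 50 lower and 1 higher against Mac1+ myeloblasts, and 49 lower and 1 higher against Mac1- myeloblasts, and the share of all genes called in either direction was larger too, at 54.2% and 58.6%.

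**Figure D1:**
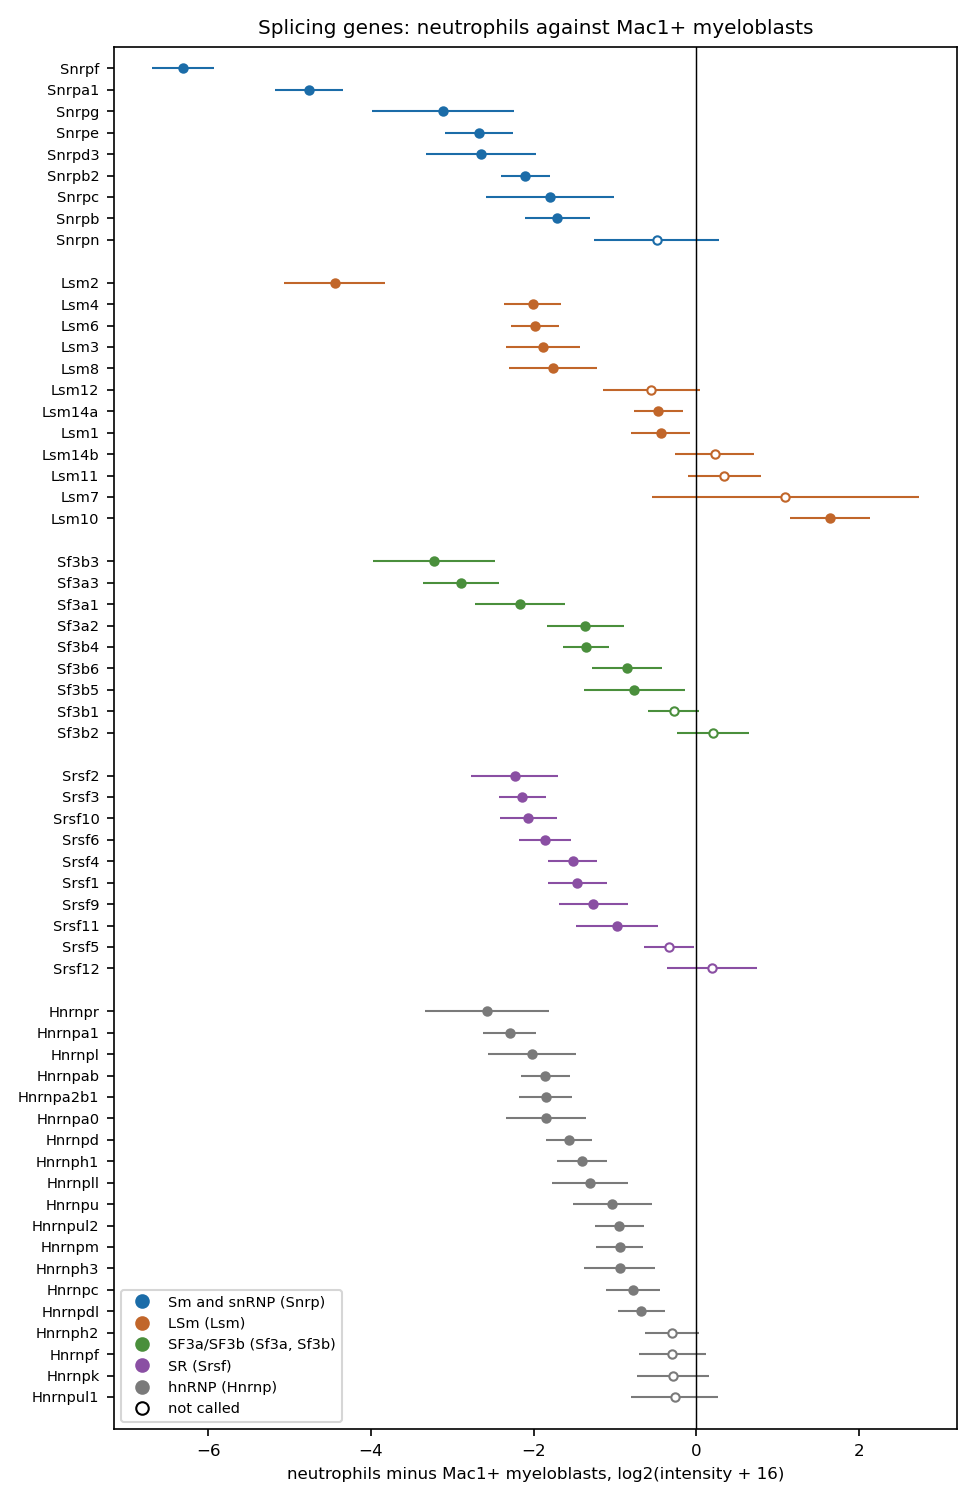
Difference of each of the 59 genes between neutrophils and Mac1+ myeloblasts (x axis, log2(intensity + 16); points, limma estimates; lines, 95% intervals), grouped by family and ordered by size. Filled points were called: 45 lie below 0 and Lsm10 is the one called point above it with the arrays as deposited (4 genes with quantile or centred arrays), and the open points are the 13 genes not called.

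The Snrp genes, which encode Sm proteins and proteins particular to the U1 and U2 snRNPs, had the lowest family median. In neutrophils against Mac1+ myeloblasts 8 of 9 fell, with a median difference of -2.65. Snrpf encodes Sm protein F, a part of the Sm ring. The gene lies at chr10:93583029-93589658 (GRCm38.p6). Its level was 5.97, 5.86 and 5.41 in neutrophils, against 11.99, 12.13 and 12.04 in Mac1+ myeloblasts and 12.39, 12.33 and 12.37 in Mac1- myeloblasts. The neutrophil arrays lay far below all 6 myeloblast arrays. The difference was -6.31 ± 0.17 (SE) against Mac1+ myeloblasts (limma adjusted p 4.13e-08), a 79.1-fold lower value, and -6.62 ± 0.17 against Mac1- myeloblasts (limma adjusted p 1.99e-08). As deposited, the neutrophil intensities of Snrpf were 46.7, 42.1 and 26.4, close to the median probe set of an array, so the size of the fold depends on the offset. It was -6.79 with an offset of 1 and -5.40 with an offset of 64 against Mac1+ myeloblasts.

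Snrpa1 encodes the A′ protein of the U2 snRNP. It measured 6.76, 7.35 and 7.28 in neutrophils, against 11.91, 12.01 and 11.75 in Mac1+ myeloblasts and 12.08, 12.28 and 12.14 in Mac1- myeloblasts. The populations of myeloblasts lay side by side and the neutrophils well below them, with differences of -4.76 ± 0.18 against Mac1+ (limma adjusted p 1.23e-07) and -5.04 ± 0.18 against Mac1- myeloblasts. All 3 of its probe sets fell, by -4.26, -4.76 and -5.14 against Mac1+ myeloblasts. Snrpb2, which encodes the partner protein B″ of the U2 snRNP, fell less, with a difference of -2.10 ± 0.13.

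The other Sm genes shared the direction. Snrpg (Sm protein G) measured 11.38, 9.87 and 9.68 in neutrophils, against 13.40, 13.38 and 13.50 in Mac1+ myeloblasts and 13.73, 13.64 and 13.67 in Mac1- myeloblasts. Neutrophil array 1 was the highest of its group, and still below every myeloblast array. The difference against Mac1+ myeloblasts was -3.12 ± 0.38 with all arrays and -3.65 without that array. Snrpe (Sm protein E) fell by 2.68 on the log2 scale and Snrpd3 (Sm protein D3) by 2.65 (limma adjusted p 2.76e-06 and 6.76e-05). The other 2 probe sets of Snrpd3 are dimmer and were not called, at -0.30 and -0.63. Snrpb (Sm proteins B and B′) had the smallest called difference of the family, -1.71 ± 0.18. Snrpc, a U1 snRNP protein that helps to recognise the 5′ splice site, measured 11.22, 10.59 and 10.43 in neutrophils, against 13.07, 12.84 and 11.73 in Mac1+ myeloblasts. Its Mac1+ array 3 lay apart from the other Mac1+ arrays but above all neutrophil arrays, and the difference was -1.80 ± 0.35 (limma adjusted p 0.00217). Snrpc has 2 probe sets. Over the alternative settings described at the end, its difference against Mac1+ myeloblasts was as small as -0.83.

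Snrpn, a paralogue of Snrpb that is imprinted and expressed mainly in brain, was dim on every array. Its other probe sets name Snurf as well and were left out. It measured 5.44, 4.20 and 4.09 in neutrophils, against 5.34, 4.76 and 5.10 in Mac1+ myeloblasts and 5.39, 5.54 and 5.55 in Mac1- myeloblasts. The groups overlapped through neutrophil array 1. The difference of -0.49 ± 0.34 against Mac1+ myeloblasts was not called (limma adjusted p 0.266), and that of -0.92 ± 0.34 against Mac1- myeloblasts was called at 0.0471. The second call was lost when any one of the other 8 arrays was left out (adjusted p 0.0585 to 0.14), and without neutrophil array 1 the first was called (difference -0.92, adjusted p 0.00205).

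The Lsm genes were the most divided family. Against Mac1+ myeloblasts 7 of 12 fell, 1 rose and 4 were not called, with a median difference of -0.51. The genes of the LSm ring of U6, which is completed by Lsm8, held most of the large falls. Lsm2 measured 4.77, 5.99 and 5.54 in neutrophils, against 9.82, 9.97 and 9.85 in Mac1+ myeloblasts and 9.90, 10.00 and 9.91 in Mac1- myeloblasts. Its neutrophil arrays were spread but far below the rest, with differences of -4.45 ± 0.27 against Mac1+ (limma adjusted p 1.33e-06) and -4.50 ± 0.27 against Mac1- myeloblasts. Against Mac1+ myeloblasts the difference was -5.13 with an offset of 1 and -3.42 with an offset of 64. Lsm4, Lsm6, Lsm3 and Lsm8 had differences of -2.01, -1.98, -1.89 and -1.76 against Mac1+ myeloblasts, and their SEs were between 0.13 and 0.24.

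Lsm7, another gene of that ring, measured 11.81, 9.27 and 8.28 in neutrophils, against 8.74, 8.61 and 8.72 in Mac1+ myeloblasts and 8.83, 8.68 and 8.73 in Mac1- myeloblasts. The neutrophil arrays fell on both sides of the myeloblasts, and array 1 alone carried most of the mean. The difference of 1.09 ± 0.72 against Mac1+ myeloblasts was not called (limma adjusted p 0.244). It was 0.08 without neutrophil array 1, and 1.85 and called without neutrophil array 3 (adjusted p 0.0341). Lsm1, which replaces Lsm8 in the cytoplasmic ring that acts in mRNA decay, had a difference of -0.44 ± 0.16 (limma adjusted p 0.0461), and this call was lost when any one of the 8 arrays other than neutrophil array 1 was left out (adjusted p 0.057 to 0.135). The direction of Lsm1 turned with quantile normalization (0.27) and with the mean of its probe sets (0.74), neither called.

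Lsm10 was the only member to rise with the arrays as deposited. With quantile normalization or centred arrays, Lsm11, Lsm14b and Sf3b2 were also called higher than in Mac1+ myeloblasts. With Lsm11, its product takes the place of a pair of Sm proteins in the ring of the U7 snRNP, which processes the ends of histone mRNAs. Lsm10, at chr4:126096562-126098584, measured 12.01, 11.34 and 11.30 in neutrophils, against 9.72, 10.00 and 9.99 in Mac1+ myeloblasts and 10.39, 10.05 and 10.06 in Mac1- myeloblasts. All neutrophil arrays lay above all myeloblast arrays. The difference was 1.64 ± 0.22 against Mac1+ myeloblasts (limma adjusted p 0.000204), a 3.12-fold higher value, and 1.38 ± 0.22 against Mac1- myeloblasts (limma adjusted p 0.000538). It has 1 probe set, so no second measurement bears on it. Lsm11 averaged 8.31 ± 0.27 in neutrophils, 7.96 ± 0.16 in Mac1+ myeloblasts and 7.95 ± 0.25 in Mac1- myeloblasts (SD, n = 3 each) and was not called in any comparison.

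Outside the rings, Lsm14a, whose product is found in cytoplasmic P-bodies with untranslated mRNA, had differences of -0.47 ± 0.13 against Mac1+ myeloblasts (limma adjusted p 0.0159) and -0.35 ± 0.13 against Mac1- myeloblasts (limma adjusted p 0.0471). The first call was lost without Mac1+ array 1 or 2 (adjusted p 0.0504 and 0.0566), and the second without any one of the 8 arrays other than neutrophil array 1 (0.0631 to 0.143), where centred arrays turned the direction of Lsm14a (0.12, not called). Its paralogue Lsm14b was not called, with a difference of 0.23 ± 0.22 against Mac1+ myeloblasts. Lsm12 was called only against Mac1- myeloblasts, with a difference of -0.78 ± 0.26 (limma adjusted p 0.0329) and overlapping groups. Against Mac1+ myeloblasts its difference was -0.55 ± 0.26 and was not called, and Lsm12 was not called between the myeloblast populations. The call was lost without neutrophil array 1 or 2 or without Mac1- array 2 or 3 (adjusted p 0.061 to 0.121), and with quantile normalization the difference of Lsm12 was 0.07 and not called.

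**Figure D2:**
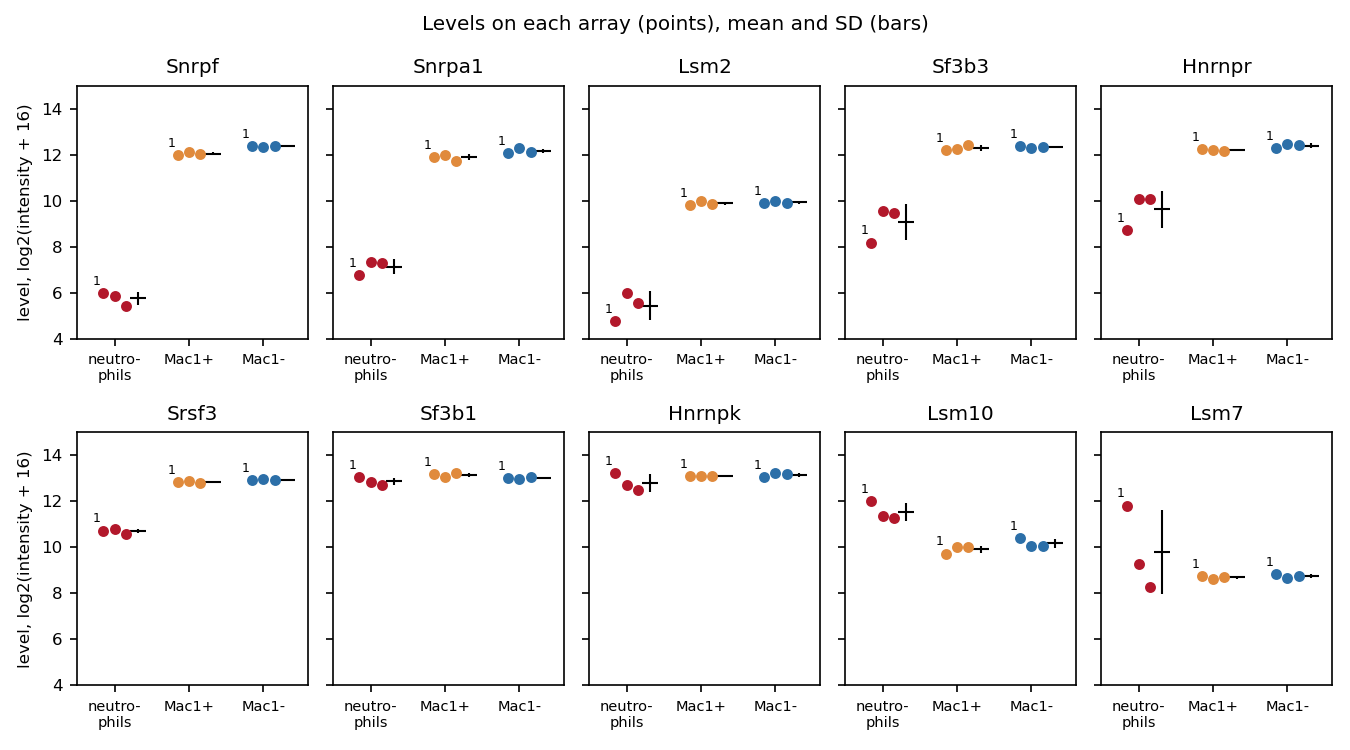
Level of 10 of the genes on each array (y axis, log2(intensity + 16)) in neutrophils, Mac1+ myeloblasts and Mac1- myeloblasts; points are arrays, array 1 of each group is numbered, and bars give the mean and SD of 3 arrays. Snrpf, Snrpa1, Lsm2, Sf3b3, Hnrnpr and Srsf3 lie lower in neutrophils, Lsm10 lies higher, and Lsm7 is high on neutrophil array 1. Sf3b1 and Hnrnpk differ little in mean between groups. For Hnrnpk, neutrophil array 1 lies above all myeloblast arrays and the other neutrophil arrays lie below them. Without array 1 both genes were called lower than in Mac1+ myeloblasts.

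The subunits of SF3a and SF3b diverged. Against Mac1+ myeloblasts 7 of 9 fell, with a median difference of -1.35. All 3 subunits of SF3a fell. Sf3a3 measured 7.90, 8.70 and 8.36 in neutrophils, against 11.06, 11.24 and 11.35 in Mac1+ myeloblasts and 11.49, 11.37 and 11.31 in Mac1- myeloblasts, a difference of -2.89 ± 0.21 against Mac1+ (limma adjusted p 3.45e-06). Sf3a1 had a difference of -2.17 ± 0.24. For Sf3a2 the brightest probe set gave -1.36 ± 0.21, while its other probe set gave 0.12 ± 0.25 and was not called (limma adjusted p 0.72).

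Within SF3b the differences ranged widely. Sf3b3, a large scaffold subunit, measured 8.17, 9.55 and 9.48 in neutrophils, against 12.20, 12.24 and 12.43 in Mac1+ myeloblasts and 12.38, 12.32 and 12.34 in Mac1- myeloblasts. Neutrophil array 1 was the lowest. The difference against Mac1+ myeloblasts was -3.22 ± 0.33 (limma adjusted p 3.54e-05), and -2.78 without that array. Its other probe set fell less, with a difference of -0.94 ± 0.32. Sf3b1, the subunit that holds the branch point helix and is often mutated in myelodysplasia, measured 13.05, 12.83 and 12.73 in neutrophils, against 13.18, 13.06 and 13.21 in Mac1+ myeloblasts and 13.01, 12.98 and 13.06 in Mac1- myeloblasts. These levels differed little. Its difference of -0.28 against Mac1+ myeloblasts, with a 95% interval of -0.59 to 0.03, was not called (limma adjusted p 0.126), though without neutrophil array 1 it was called at -0.37 (adjusted p 0.019). None of its 4 probe sets was called in any comparison when all probe sets were tested.

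Sf3b2, which binds beside Sf3b4 near the branch point, measured 13.40, 12.84 and 12.66 in neutrophils, against 12.79, 12.73 and 12.77 in Mac1+ myeloblasts and 12.46, 12.59 and 12.54 in Mac1- myeloblasts. The neutrophils lay around the Mac1+ arrays and above the Mac1- arrays. Its differences were 0.20 ± 0.19 and 0.44 ± 0.19, neither called (limma adjusted p 0.416 and 0.0868), and the second was called at 0.59 without neutrophil array 3 (adjusted p 0.0273). Sf3b4 fell by 1.35 on the log2 scale against Mac1+ myeloblasts, with an SE of 0.12. It has 2 probe sets, and over the alternative settings described at the end its difference was as small as -0.55. The small subunits Sf3b6 and Sf3b5 had differences of -0.85 ± 0.19 and -0.76 ± 0.27. The groups of Sf3b5 overlapped, with 11.85, 11.18 and 10.74 in neutrophils against 11.83, 12.07 and 12.15 in Mac1+ myeloblasts. Its calls at limma adjusted p 0.0445 in both neutrophil comparisons were lost when any one of the 8 arrays other than neutrophil array 1 was left out (0.0557 to 0.123 against Mac1+ and 0.0589 to 0.143 against Mac1- myeloblasts).

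Upstream sequence was compared among 4 of these genes: Snrpf with the largest fall, Snrpg and Sf3b3 with other large falls, and Sf3b2, which was not called although it belongs to the same complex as Sf3b3. Snrpa1 (-4.76) and Lsm2 (-4.45) fell further against Mac1+ myeloblasts than Snrpg and Sf3b3 and are not shown. The lines below give the 250 bases before the transcript start that RefSeq lists for each of the 4 genes (assembly GRCm38.p6, the first of 2 listed starts for Sf3b2), read 5′ to 3′ on the strand of the gene. Capitals mark CCGGAAG, a core that ETS family factors bind, and CCAAT, the core of the NF-Y site, or their reverse complements CTTCCGG and ATTGG. The windows are chr10:93589659-93589908 on the minus strand for Snrpf, chr6:86371290-86371539 on the plus strand for Snrpg, chr8:110846804-110847053 on the minus strand for Sf3b3 and chr19:5295458-5295707 on the minus strand for Sf3b2. The last few bases of the Sf3b3 window lie within the annotated gene (chr8:110810491-110846806).
Snrpf: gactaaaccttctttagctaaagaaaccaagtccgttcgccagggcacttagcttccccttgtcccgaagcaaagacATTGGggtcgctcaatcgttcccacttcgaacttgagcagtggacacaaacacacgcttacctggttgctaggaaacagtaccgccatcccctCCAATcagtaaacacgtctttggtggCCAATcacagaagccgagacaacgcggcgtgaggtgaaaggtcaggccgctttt
Snrpg: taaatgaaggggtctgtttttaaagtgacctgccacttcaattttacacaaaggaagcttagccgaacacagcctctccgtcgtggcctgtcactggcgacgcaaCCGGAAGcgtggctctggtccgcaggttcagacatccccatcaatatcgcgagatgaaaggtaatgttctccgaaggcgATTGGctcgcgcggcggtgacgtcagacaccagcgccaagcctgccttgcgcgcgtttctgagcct
Sf3b3: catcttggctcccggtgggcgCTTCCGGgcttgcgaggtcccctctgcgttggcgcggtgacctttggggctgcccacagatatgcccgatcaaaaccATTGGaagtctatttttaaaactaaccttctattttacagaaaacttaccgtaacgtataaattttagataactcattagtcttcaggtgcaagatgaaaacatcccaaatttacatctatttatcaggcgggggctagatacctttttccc
Sf3b2: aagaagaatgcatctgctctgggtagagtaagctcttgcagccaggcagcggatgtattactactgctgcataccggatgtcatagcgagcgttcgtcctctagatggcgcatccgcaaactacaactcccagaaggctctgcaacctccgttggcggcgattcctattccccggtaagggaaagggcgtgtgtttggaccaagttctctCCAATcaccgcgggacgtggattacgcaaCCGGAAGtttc
Snrpf held 3 copies of CCAAT and no CCGGAAG, and Snrpg, Sf3b3 and Sf3b2 each held 1 copy of both. The letters were therefore shared between Sf3b3, which fell, and Sf3b2, which was not called. Of the 59 genes, 51 had a listed upstream sequence. A gene was counted if the window of any of its listed starts held the letters, so genes with several starts had more chances. CCGGAAG occurred on either strand in 14 of the 51 genes (27.5%), against 11.8% of 14369 genes of the array with such a sequence, and CCAAT in 24 (47.1%), against 39.4%. By call against Mac1+ myeloblasts, CCGGAAG was in 11 of 38 genes that fell and in 3 of 12 that were not called. CACGTG, the E-box bound by Myc and its relatives, occurred in 2 (3.92%, against 8.74% of array genes) and TATAAA in 5 (9.80%, against 10.5%). The NRF1 motif occurred in 1 (1.96%, against 1.43%) and AAGATGGC, the YY1 site, in 2 (3.92%, against 2.05%). A match is a description of letters and not of binding.

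Among the SR protein genes 8 of 10 fell against Mac1+ myeloblasts, with a median difference of -1.49, and the called differences lay between -2.23 and -0.97. Srsf3, the smallest SR protein and one that also takes part in mRNA export, measured 10.72, 10.81 and 10.60 in neutrophils, against 12.85, 12.88 and 12.82 in Mac1+ myeloblasts and 12.94, 12.97 and 12.93 in Mac1- myeloblasts. The arrays of each population were tightly grouped. The difference was -2.14 ± 0.13 against Mac1+ myeloblasts (limma adjusted p 1.06e-06) and -2.24 ± 0.13 against Mac1- myeloblasts. Srsf2, a speckle protein that is recurrently mutated in myeloid malignancy, measured 9.96, 10.92 and 10.70 in neutrophils, against 12.84, 12.72 and 12.71 in Mac1+ myeloblasts and 12.69, 12.91 and 12.82 in Mac1- myeloblasts, a difference of -2.23 ± 0.23 (limma adjusted p 4.39e-05). Without its probe sets of suffix s, which may cross-hybridise, Srsf2 keeps a dim one, which was higher in neutrophils, by 0.66 against Mac1+ and 0.97 against Mac1- myeloblasts. Srsf10, which acts as a splicing repressor when it loses its phosphates, had a difference of -2.07 ± 0.15. Srsf6 and Srsf4, close relatives with long RS domains, had differences of -1.87 ± 0.14 and -1.52 ± 0.13.

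Srsf1 and Srsf9, another related pair, fell by similar amounts. Srsf1 averaged 12.21 ± 0.26 in neutrophils, against 13.68 ± 0.07 in Mac1+ myeloblasts, a difference of -1.46 ± 0.16. Srsf9 averaged 10.55 ± 0.35 in neutrophils and 11.82 ± 0.05 in Mac1+ myeloblasts, a difference of -1.27 ± 0.19. Srsf5 measured 11.84, 12.10 and 11.81 in neutrophils, against 12.26, 12.22 and 12.26 in Mac1+ myeloblasts and 12.26, 12.39 and 12.30 in Mac1- myeloblasts. The groups did not overlap but the distance was small. It was not called against Mac1+ myeloblasts (difference -0.33 ± 0.14, limma adjusted p 0.0715) and was called against Mac1- myeloblasts (-0.40 ± 0.14, limma adjusted p 0.0332). Without neutrophil array 2 the first was called (-0.42, adjusted p 0.0359), and the second was lost without neutrophil array 3, Mac1+ array 1 or 2, or any Mac1- array (0.0503 to 0.111). With centred arrays the second difference of Srsf5 was 0.07 and not called. Srsf12 was dim, between 4.30 and 5.23 on all 9 arrays, and was not called in any comparison.

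Of the Hnrnp genes 15 of 19 fell against Mac1+ myeloblasts and 4 were not called, with a median difference of -1.03. Hnrnpr measured 8.71, 10.09 and 10.09 in neutrophils, against 12.24, 12.20 and 12.17 in Mac1+ myeloblasts and 12.29, 12.49 and 12.44 in Mac1- myeloblasts. Neutrophil array 1 was the lowest, and all neutrophil arrays lay below the myeloblasts. The difference was -2.57 ± 0.34 against Mac1+ (limma adjusted p 0.000182) and -2.11 without that array. Hnrnpa1, which often acts against Srsf1 in the choice of splice site, measured 8.77, 9.01 and 9.03 in neutrophils, against 11.18, 11.26 and 11.25 in Mac1+ myeloblasts and 11.55, 11.82 and 11.76 in Mac1- myeloblasts. Its differences were -2.30 ± 0.14 against Mac1+ (limma adjusted p 1.5e-06) and -2.78 ± 0.14 against Mac1- myeloblasts. Hnrnpa1 has many processed copies in the genome, and 3 further probe sets that name it with such copies were left out.

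Hnrnpl and Hnrnpll, related proteins that regulate exons of CD45 in lymphocytes, both fell by their brightest probe sets. Hnrnpl measured 7.81, 8.15 and 8.81 in neutrophils, against 10.26, 10.32 and 10.26 in Mac1+ myeloblasts, a difference of -2.02 ± 0.24. Its other probe set is dim (mean level 6.21) and went the other way, at 0.22 ± 0.23 against Mac1+ myeloblasts, not called, and 0.70 ± 0.23 against Mac1- myeloblasts, called higher (limma adjusted p 0.0327). The mean of both probe sets of Hnrnpl gave -0.90 against Mac1+ and -0.68 against Mac1- myeloblasts. Hnrnpll measured 10.89, 11.66 and 11.56 in neutrophils, against 12.71, 12.57 and 12.76 in Mac1+ myeloblasts, a difference of -1.31 ± 0.21. Hnrnpa2b1 and Hnrnpab had differences of -1.85 ± 0.14 and -1.86 ± 0.13, and Hnrnpa0 of -1.85 ± 0.22. Hnrnpd, also known as AUF1 and a regulator of the decay of AU-rich mRNAs, had a difference of -1.56 ± 0.12. Smaller falls were called for Hnrnpc, which binds uridine tracts, at -0.78 ± 0.15, and for Hnrnpdl at -0.67 ± 0.13. Hnrnpu, a nuclear scaffold protein, averaged 11.67 ± 0.33 in neutrophils, against 12.70 ± 0.10 in Mac1+ and 13.05 ± 0.30 in Mac1- myeloblasts (SD, n = 3 each).

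The Hnrnp genes that were not called in any comparison were Hnrnpf, Hnrnph2, Hnrnpk and Hnrnpul1. Hnrnpk, a protein that binds cytidine-rich sequence, measured 13.24, 12.70 and 12.49 in neutrophils, against 13.09, 13.10 and 13.09 in Mac1+ myeloblasts and 13.06, 13.24 and 13.19 in Mac1- myeloblasts. Neutrophil array 1 was above the myeloblasts and neutrophil arrays 2 and 3 were below them. The difference against Mac1+ myeloblasts was -0.28 ± 0.19 (limma adjusted p 0.264), and -0.50 and called without neutrophil array 1 (adjusted p 0.00638). Hnrnpf, which binds runs of guanosines, had a difference of -0.29 ± 0.18, and -0.48 and called without that array (adjusted p 0.00477). For Hnrnpul1 the values were -0.27 ± 0.24 with all arrays and -0.56 and called without it (adjusted p 0.00316). Against Mac1- myeloblasts, Hnrnpf and Hnrnpk were likewise called without array 1 (-0.46 and -0.57, adjusted p 0.00571 and 0.00287). Hnrnph2 had a difference of -0.30 ± 0.15 against Mac1+ and -0.11 ± 0.15 against Mac1- myeloblasts, whereas its relative Hnrnph1 fell by 1.40 on the log2 scale against Mac1+ myeloblasts with an SE of 0.13. Hnrnph1 has 2 probe sets. Over the alternative settings described at the end, its difference against Mac1+ myeloblasts was as small as -0.63.

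The Mac1+ and Mac1- myeloblasts gave 0 called members of 59 in limma, where 11.9% of all genes were called, 6.31% higher and 5.60% lower. At an unadjusted p under 0.05 there were 2, Hnrnpa1 and Hnrnpul2. The differences of the members lay between -0.48 and 0.37, with a median of -0.05, against -0.01 for all genes. Hnrnpa1 had a difference of -0.48 ± 0.14 (95% interval -0.80 to -0.15, limma adjusted p 0.0663) and Hnrnpul2 one of 0.37 ± 0.13 (95% interval 0.06 to 0.67, adjusted p 0.133). Groups did not overlap for 18 members that were lower in Mac1+ myeloblasts, against 20.2% of all genes, and for 7 that were higher, against 19.7% of all genes. Of the 9 Snrp genes, 7 were among the 18. Snrpf, for example, had a difference of -0.31 with a 95% interval of -0.70 to 0.07, and Snrpa1 one of -0.28 with an interval of -0.69 to 0.14. A missing call does not show equal levels. The estimate of the spread is shared with the neutrophil arrays, and without neutrophil array 1 there were 2 members called lower (Hnrnpa1 and Hnrnpa0, adjusted p 0.0129 and 0.0291) and 1 higher (Hnrnpul2, 0.0414), where 4187 of all 18193 genes were called, against 2167 with all arrays.

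**Figure D3:**
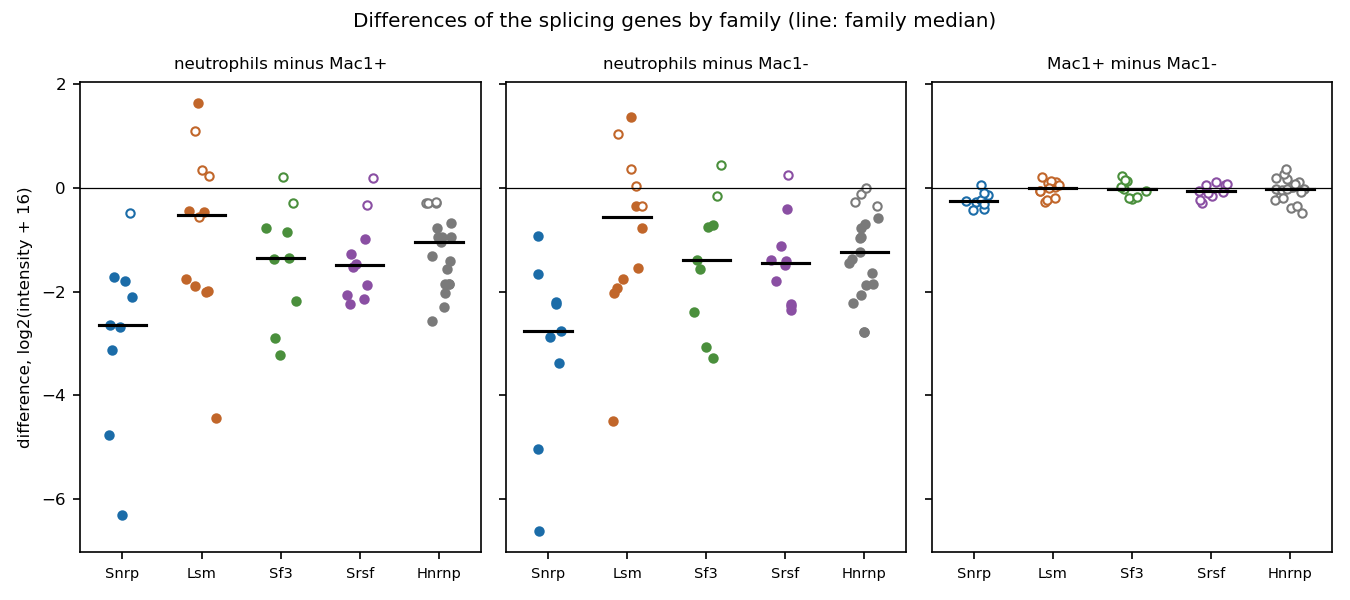
Difference of every gene by family (x axis) in neutrophils minus Mac1+ myeloblasts, neutrophils minus Mac1- myeloblasts and Mac1+ minus Mac1- myeloblasts (y axis, log2(intensity + 16)); filled points were called, open points were not, and lines are family medians. Family medians in the first panel run from -2.65 for Snrp to -0.51 for Lsm, and in the third panel all points are open and lie between -0.48 and 0.37.

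Against Mac1- myeloblasts the families kept the same picture, with the neutrophil arrays in common. All 9 Snrp genes fell, with a median of -2.76, and 7 of 12 Lsm genes fell with Lsm10 higher and a median of -0.57. The counts were 7 of 9 for Sf3 (median -1.38), 9 of 10 for Srsf (median -1.45) and 15 of 19 for Hnrnp (median -1.24). The 10 members not called in any comparison were Hnrnpf, Hnrnph2, Hnrnpk, Hnrnpul1, Lsm11, Lsm14b, Lsm7, Sf3b1, Sf3b2 and Srsf12.

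The 59 genes have 162 probe sets that name them alone, and 41 genes have more than 1. With every probe set tested, 99 of the 162 fell in neutrophils against Mac1+ myeloblasts, 6 rose and 57 were not called. This test was adjusted over 34945 probe sets, whose median difference was 0.08 in both neutrophil comparisons. The share of them called was not counted, so the probe set counts here stand without a background. Of the 41 genes, 11 had all probe sets lower, 23 had some lower and the others not called, and 3 had probe sets called in opposite directions. These were Srsf2, Srsf3 and Srsf11. Against Mac1- myeloblasts 104 probe sets fell and 6 rose, and the genes with opposite calls were Srsf2, Srsf3 and Hnrnpl. For Srsf3, 5 probe sets fell with differences of -1.78 to -3.31, and a dim one (mean level 7.18) rose by 1.43. For Srsf2, 3 fell, by -0.72 to -2.23, and a dim one (mean level 7.56) rose by 0.66. For Srsf11, 2 fell, by -0.54 and -0.97, and a dim one (mean level 6.18) rose by 0.68. The other 3 probe sets that rose belong to Lsm10, to Sf3b2 (0.97) and, among dim ones, to Lsm1 (1.92). Which transcripts or parts of transcripts these probe sets bind was not tested. The size of the fall also differed between probe sets of one gene. The brightest probe set of Hnrnpab gave -1.86, 4 others gave -2.96 to -3.81, and 2 were not called. Of the genes that were not called, Hnrnpf had 2 dimmer probe sets that fell, by -1.15 and -1.19, and Hnrnpk had 2 that fell, by -0.72 and -1.09. In Mac1+ against Mac1- myeloblasts none of the 162 probe sets was called.

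**Figure D4:**
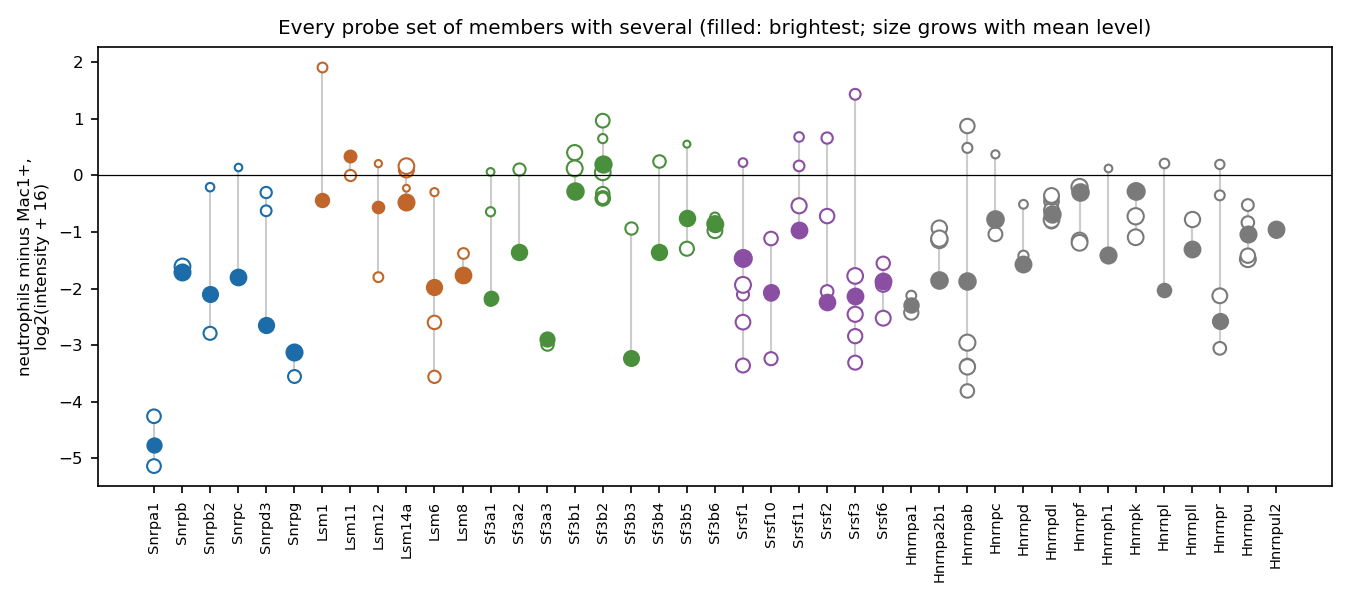
Difference between neutrophils and Mac1+ myeloblasts (y axis, log2(intensity + 16)) for every probe set of the 41 genes with more than 1; filled points are the brightest probe set of a gene, open points the others, and point size grows with the mean level. All filled points except those of Lsm11 and Sf3b2 lie below 0, and the rising probe sets of Srsf3, Srsf2, Srsf11 and Lsm1 are small points.

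Other genes of the pathway were read from 7 lists covering the rest of the splicing machinery, of which 140 genes were measured. In neutrophils against Mac1+ myeloblasts 93 of the 140 fell, 13 rose and 34 were not called, with a median difference of -0.99. The shares of all genes in this comparison were 28.5% lower and 20.0% higher, with a median of 0.05, or -0.42 without the dimmest 40%. Of 22 other snRNP proteins 18 fell and none rose. Snrnp25, a protein of the minor spliceosome, averaged 5.66 ± 0.85 in neutrophils, against 10.58 ± 0.22 in Mac1+ myeloblasts, a difference of -4.92 ± 0.37. Eftud2, the GTPase of the U5 snRNP, had a difference of -3.08 ± 0.37. Of 28 branch point, splice site and Prp19 factors 20 fell and 1 rose. The cyclophilin Ppie and the ubiquitin ligase Prpf19 fell by 2.99 and 2.57 on the log2 scale, and Syf2 rose by 0.63.

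Genes of snRNP assembly and transport were mostly lower too. Of 16 measured, 14 fell and 1 rose, with a median difference of -2.03. Coil, which encodes coilin of the Cajal body, averaged 5.45 ± 0.48 in neutrophils, against 9.12 ± 0.17 in Mac1+ myeloblasts and 9.70 ± 0.06 in Mac1- myeloblasts, a difference of -3.67 ± 0.23 against Mac1+ (limma adjusted p 1.69e-06). Gemin2, a partner of SMN in loading the Sm ring, had a difference of -3.43 ± 0.33, and Gemin7 rose by 0.60. Of 31 other regulators of alternative splicing 20 fell and 3 rose. Fubp1 and Tardbp fell by 3.67 and 3.39 on the log2 scale, and Rbm25 and Rbfox2 rose by 1.51 and 1.30.

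Of 14 helicases and factors of the late steps 4 fell (28.6%), 3 rose (21.4%) and 7 were not called, close to the shares of all genes, with a median difference of -0.19. Ddx39b, an export helicase, averaged 10.90 ± 0.14 in neutrophils, against 13.25 ± 0.09 in Mac1+ myeloblasts, whereas the second-step factor Slu7 averaged 11.27 ± 0.09 in neutrophils, against 10.05 ± 0.14 in Mac1+ myeloblasts. Of 20 SR kinases and SR-related genes 11 fell and 3 rose. Tra2b fell by 2.14 on the log2 scale. Among the kinases that phosphorylate SR proteins, Clk1 and Srpk2 rose by 0.94 and 0.88, and Srpk1 fell by 1.54. Of 9 genes of the exon junction complex and mRNA export 6 fell and 2 rose, with Thoc1 at -3.75 ± 0.14 and Casc3 at 0.98 ± 0.14.

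Between the myeloblast populations 3 of the 140 were called, 1 higher (0.714%) and 2 lower (1.43%), below the 6.31% and 5.60% of all genes. Srpk2 was higher in Mac1+ than in Mac1- myeloblasts by 0.60 ± 0.14 (limma adjusted p 0.0257). Prpf4 and Prpf31, proteins of the tri-snRNP that brings U4, U5 and U6 into the spliceosome, were lower in Mac1+ myeloblasts, with differences of -0.69 ± 0.15 and -0.50 ± 0.13 (limma adjusted p 0.0194 and 0.0448). In neutrophils against Mac1- myeloblasts 84 of the 140 fell, 16 rose and 40 were not called, with a median difference of -1.12, where 30.2% of all genes were lower and 22.8% higher.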

How the data were processed

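RNA of sorted cells was amplified over repeated cycles, labelled with biotin and hybridised, per the labels' protocols. The authors deposited intensity values on a linear scale for 45101 probe sets on 9 arrays. Their summarisation, background correction and scaling are not given in the sources used here. Amplification favours the ends of transcripts that lie near the poly(A) tail and can add spread. The number of arrays limits the precision.

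No further normalization was applied before taking log2(intensity + 16). There were 64 control probe sets, 9160 with no gene symbol, 932 with several and 34945 with 1. The last kind was used, with the brightest by mean intensity kept, which gave 18193 genes. All 59 members matched by gene ID to a gene table of GRCm38.p6. The test was that of limma (version 3.58.1, R 4.3.3), fitted in one model of the 3 populations, with Benjamini-Hochberg adjustment over all genes of a comparison, and called at an adjusted p under 0.05. The procedure was run on simulated arrays with independent spread and few changed genes. In these data many genes differ and 1 neutrophil array stands apart, so that run does not show how reliable the calls here are. Motifs were searched on both strands with Python 3.11.15 in RefSeq upstream sequences of GRCm38.p6. The labels do not say whether replicate numbers pair the arrays, and the main test did not pair them. Deviations from the group means correlated between -0.30 and 0.13 for the same number, and between -0.17 and 0.29 for other numbers. With 3 arrays per population, such correlations cannot show whether arrays shared an animal or a day.

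Named members are, per family and comparison, up to 3 called genes with the largest differences each way, genes called against their family, genes never called, the paralogue pairs Snrpb and Snrpn, Hnrnpl and Hnrnpll, and Srsf1 and Srsf9 (Hnrnpa3, the partner of Hnrnpa1, was not measured alone), and genes with opposite probe sets. Others named beside them were picked for their role after their values were seen. For the pathway lists, up to 2 called genes each way are named. The members, lists and tests were chosen with earlier results of these data known. Protein sequences and genes with only shared probe sets were not analysed here.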

Additional observations from a re-analysis of the deposited data

How the results depend on the processing

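Over 21 alternative settings, 38 of the 46 calls in neutrophils against Mac1+ myeloblasts and 36 of the 48 against Mac1- myeloblasts held in the same direction in every one. Lost or turned in 1 or more were Hnrnpc, Hnrnph3, Lsm1, Lsm14a, Sf3a2, Sf3b5, Srsf11 and Srsf2 against Mac1+, and Hnrnpdl, Hnrnph3, Hnrnpul2, Lsm12, Lsm14a, Sf3a2, Sf3b5, Sf3b6, Snrpn, Srsf11, Srsf2 and Srsf5 against Mac1- myeloblasts. The count of members higher against Mac1+ myeloblasts, 1 in the report, was 4 with quantile normalization, 4 with arrays centred on their medians, 2 without probe sets of suffix s or x (marked as able to bind several transcripts) and 2 with array weights. Against Mac1- myeloblasts, also 1 in the report, it was 5, 7, 2 and 4 under the same settings, and 2 with the mean of probe sets and with a trended, robust variance prior. Centring moves the median difference of all genes to 0.33 against Mac1+, 0.53 against Mac1- and 0.18 between the myeloblasts. The members' median was -1.22 with quantile normalization, -1.12 centred and -1.04 with the mean of probe sets against Mac1+, and -0.97 centred and -0.97 with the mean of probe sets against Mac1- myeloblasts. Changes of direction in which at least one of the values was called were those of Srsf2 without suffix s or x (0.66 against Mac1+ and 0.97 against Mac1-, its only remaining probe set being the dim one), Sf3a2 without suffix s or x (0.12 against Mac1+), Lsm1 against Mac1+ with quantile normalization (0.27) and the mean of probe sets (0.74), Lsm12 against Mac1- with quantile normalization (0.069), and, with centred arrays against Mac1- myeloblasts, Hnrnpul1 (0.47), Sf3b1 (0.33), Lsm14a (0.12) and Srsf5 (0.074), where centring moves all genes up. Of members not called in the report, 6 against Mac1+ and 7 against Mac1- myeloblasts changed sign in 1 or more settings, Hnrnpul1 and Sf3b1 included.

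Between Mac1+ and Mac1- myeloblasts, 1 member was lower with quantile normalization, with an offset of 64, without dim genes and with the trended prior, 3 with only the compared groups and 6 with array weights. The higher count was 1 with an offset of 64, the trended prior, only the compared groups and array weights. The share of all genes called was counted only for the fits that leave out an array. Under the other settings, in all comparisons, the counts of members therefore stand without a background. The median was -0.10 with quantile normalization, 0.14 centred and -0.030 without suffix s or x. Leaving out each array in turn gave 1 to 2 higher and 42 to 50 lower against Mac1+, 1 to 3 higher and 42 to 49 lower against Mac1-, and 0 to 1 higher and 0 to 2 lower between the myeloblasts. With 2 arrays in a group the fit pools the spread. The replicate number as a block gave 43 lower and 1 higher against Mac1+, 44 lower and 1 higher against Mac1-, and 0 called between the myeloblasts. The cause of these changes was not tested.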
